A study of Bos taurus with 33 samples.

Results

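Interleukins are secreted proteins through which immune cells, epithelium and stroma signal to each other. The genes described here are the interleukins, their receptors and their inhibitors in bovine endometrium: every gene on the array with a symbol that begins with IL and a digit, together with OSMR, LIF and OSM. This gave 42 genes of the 9155 that the array annotation names by a single symbol, among them 21 ligands, 19 receptor chains and 2 inhibitors. They carry 60 of the 24016 probe sets tested. Each gene was represented by its brightest probe set, judged by the mean of the 33 arrays, and 12 of the 42 had more than 1 to choose from. By family, 11 genes belong to the common gamma chain and IL-13 cytokines, 9 to the IL-1 family, 6 to the IL-10 family, 5 to the IL-6 family, 4 to the IL-12 family, 3 to the IL-17 family and 2 to the common beta chain family, and IL16 and IL34 stand outside these. IL6ST, LIFR, IL15RA, IL18BP and IL1RL1 were not analysed here.

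RNA of 33 Bavarian Simmental heifers, 1 Affymetrix array each, was measured in 2 experiments, and all heifers had been synchronised with the prostaglandin analogue cloprostenol. For the biopsy experiment, lipid rods that release human interferon alpha (IFNA), rods without it (placebo) or phosphate-buffered saline (PBS) were placed through the cervix in the horn beside the corpus luteum on day 14, and about 6 biopsies per animal were taken from the caudal part of that horn on day 16 after a PBS flush (3 animals per group). The pregnancy experiment took intercaruncular endometrium, the tissue between the attachment sites of the placenta, at slaughter from heifers inseminated with semen of the same bull (pregnant) and from heifers given sperm-free supernatant (cyclic). There were 5 pregnant and 5 cyclic animals on day 12, 3 and 3 on day 15, and 4 and 4 on day 18. The distal part of the horn was sampled on day 12, the medial part on day 15 and the caudal part on day 18, so day and part of the horn cannot be told apart. Human IFNA is a model of the ruminant pregnancy signal and not that signal itself, which is interferon tau.

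In ruminants the elongating conceptus secretes interferon tau, a type I interferon that signals maternal recognition of pregnancy to the endometrium. Interleukins act on the same tissue. Members of the IL-1 family such as IL-1 alpha, IL-1 beta, IL-18 and IL-33 start inflammatory signalling, and the receptor antagonist IL1RN and the decoy receptor IL1R2 hold IL-1 in check. Cytokines of the IL-6 family (IL-6, LIF, oncostatin M) signal through STAT3, and those of the common gamma chain (IL-2, IL-4, IL-7, IL-15, IL-21) support lymphocytes.

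All values are log2 expression levels, so a difference of 1 is a 2-fold change, and differences are given ± the standard error of the limma fit. A difference counted as past the threshold when its Benjamini-Hochberg adjusted p, over all 24016 probe sets, was below 0.05. Counts at an unadjusted limma p below 0.05 have no share over all genes beside them, so they are descriptions only. Sorted values matched closely within the biopsy arrays and within each slaughter day (largest SD of a sorted value 0.051 to 0.075) and less so over all 33 arrays (0.333). These 4 sets appear to have been normalised apart from each other, so levels are compared between them only as a description. RNA quality also differed by set. The GAPDH control signal was higher at the 3′ than at the 5′ end by 1.03 to 3.87 in the biopsies, 0.22 to 0.56 on day 12, -0.16 to -0.04 on day 15 and -0.10 to 0.14 on day 18. Markers of both tissue compartments were bright: 12 epithelial genes averaged 8.45 to 9.90 and 10 stromal genes 10.54 to 11.53 over the arrays, and 7 trophoblast genes averaged 4.09 to 4.88, with no trophoblast gene past the threshold on any day. The samples are bulk tissue, so fewer cells of a type and less RNA per cell cannot be told apart.

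Most interleukin transcripts gave a dim signal. In every group, 27 of the 42 lay below the median of their array and 12 below its 25th percentile, among them IL3, an early blood cell growth factor (group means 2.53 to 3.24), and the receptor chain IL23R (2.21 to 2.81). The receptor chains IL6R (group means 8.66 to 11.24), IL13RA1 (9.07 to 10.26), IL1RAP (8.99 to 10.01) and IL10RB (8.04 to 9.36) were among the bright probe sets. Signals of different probe sets do not rank the genes themselves.

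On day 18, 9 of the 42 genes rose in pregnant endometrium and none fell. They were 5 receptor chains (IL20RB, OSMR, IL2RA, IL13RA1, IL2RG), 3 ligands (IL18, IL7, IL15) and the antagonist IL1RN. This is 21.4% of the interleukin genes, beside 12.6% of all genes higher and 10.4% lower in the same comparison. The arrays of pregnant and cyclic animals did not overlap for 8 of the 42, all with pregnant animals higher, which is 19.0% beside 24.6% of all genes. The median difference was 0.12 over the 42 genes and -0.01 over all genes, and 33 of the 42 differences were above 0. At an unadjusted p below 0.05 there were 12 higher and 1 lower. The shares of all genes above 0 and at an unadjusted p below 0.05 were not determined.

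**Figure D1:**
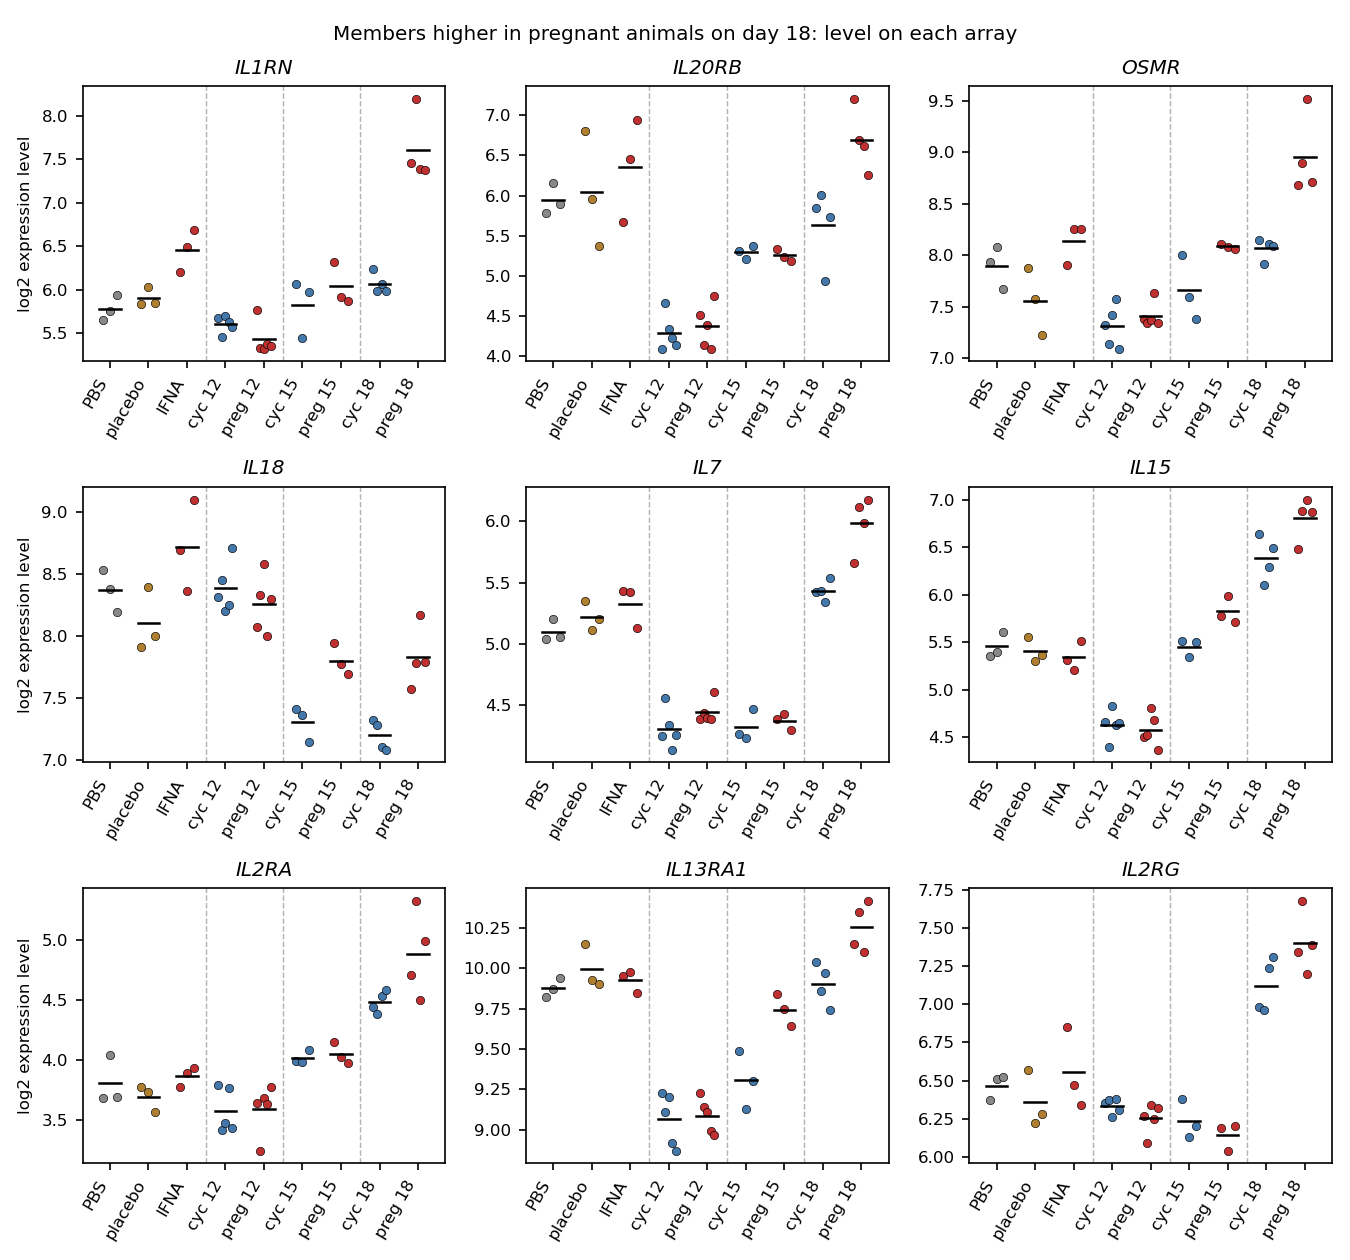
Log2 expression level of the 9 genes that rose on day 18 on each array (points) with the group mean (bar), for PBS, placebo and IFNA biopsies and for cyclic (cyc) and pregnant (preg) animals on days 12, 15 and 18. Dashed lines separate sets of arrays that appear to have been normalised separately; on day 18 the pregnant arrays of IL1RN lie between 7.38 and 8.20 and the cyclic arrays between 5.98 and 6.24.

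IL1RN, the secreted antagonist of the IL-1 receptor, differed most. Its levels were 7.46, 8.20, 7.39 and 7.38 in the 4 pregnant animals and 6.24, 5.99, 6.06 and 5.98 in the 4 cyclic animals. Every pregnant animal stood above every cyclic one, and animal 2 stood above the other pregnant animals. The difference was 1.54 ± 0.161 (2.91-fold, limma adjusted p = 4.07e-07), and 1.34 without that animal.

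IL20RB is a receptor chain for IL-19, IL-20 and IL-24, cytokines of the IL-10 family that act mainly on epithelium. It measured 7.21, 6.69, 6.62 and 6.26 in pregnant and 5.84, 6.01, 4.93 and 5.73 in cyclic animals, with no overlap. The rise was 1.07 ± 0.201 (2.1-fold, limma adjusted p = 0.000647). Its partner chain IL20RA had a difference of 0.42 ± 0.179 that did not pass (limma adjusted p = 0.108).

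OSMR, the signalling receptor chain for oncostatin M, measured 8.68, 8.89, 9.52 and 8.71 in pregnant and 8.15, 7.91, 8.11 and 8.09 in cyclic animals. The groups did not overlap, and the rise was 0.88 ± 0.15 (1.85-fold, limma adjusted p = 0.000238). The other 3 OSMR probe sets also passed, with rises of 0.69, 1.30 and 1.81. Its ligand OSM did not pass, with a difference of -0.07 ± 0.0714 (5.71 and 5.78). Neither did the other genes of this family: LIF at 0.14 ± 0.0941, IL6 at 0.29 ± 0.164 and IL6R at 0.24 ± 0.188.

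Of the 9 genes of the IL-1 family, IL1RN and IL18 rose and none fell. IL18, a cytokine that primes lymphocytes to make interferon gamma, measured 7.57, 7.78, 8.17 and 7.79 in pregnant and 7.32, 7.28, 7.10 and 7.08 in cyclic animals. Again the groups were apart, and the rise was 0.63 ± 0.132 (1.55-fold, limma adjusted p = 0.00165). The IL-1 ligands did not pass: IL1A, at 5.54 to 5.76 in pregnant and 5.21 to 5.52 in cyclic animals, had a difference of 0.21 ± 0.112, and IL1B one of -0.18 ± 0.0994. Neither did the signalling receptor IL1R1 (-0.07 ± 0.12) or its accessory chain IL1RAP (0.24 ± 0.125), although a second IL1RAP probe set passed at 0.46 (limma adjusted p = 0.0379). That probe set was dim, at 3.32 in pregnant and 2.86 in cyclic animals, beside 9.47 and 9.22 for the brightest. The third IL1RAP probe set measured 2.75 and 2.77.

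IL1R2 is the decoy receptor that binds IL-1 without signalling. It measured 6.77, 6.42, 6.54 and 6.91 in pregnant and 7.94, 6.71, 7.02 and 7.12 in cyclic animals on day 18. The ranges overlapped, and the difference of -0.54 ± 0.2 did not pass (limma adjusted p = 0.0648). On day 15 it measured 4.69, 4.98 and 4.54 in pregnant and 5.44, 5.62 and 5.44 in cyclic animals, with no overlap and a difference of -0.76 ± 0.231 that also missed the threshold (limma adjusted p = 0.0588). On both days the 2 inhibitors of IL-1 thus had differences of opposite sign, but only the day 18 rise of IL1RN passed. On day 15 the IL1RN difference was 0.21, with overlapping groups.

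The common gamma chain and IL-13 group held 5 of the 9 rises, IL7, IL15, IL2RA, IL13RA1 and IL2RG, among its 11 genes. IL7, a survival factor for lymphocytes, measured 5.66, 6.12, 5.99 and 6.18 in pregnant and 5.42, 5.43, 5.34 and 5.54 in cyclic animals. All pregnant animals were above all cyclic ones, and the rise was 0.56 ± 0.0987 (1.47-fold, limma adjusted p = 0.000372).

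IL15 sustains NK cells and memory T cells. Its levels were 6.48, 6.88, 7.0 and 6.87 in pregnant and 6.64, 6.10, 6.29 and 6.49 in cyclic animals. The lowest pregnant animal lay inside the cyclic range, and the rise was 0.43 ± 0.123 (1.34-fold, limma adjusted p = 0.0177). It did not pass without cyclic animal 2 or 3 or pregnant animal 2 or 3 (differences over all fits with 1 animal left out 0.33 to 0.54).

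IL2RG is the shared gamma chain itself. It measured 7.34, 7.68, 7.20 and 7.39 in pregnant and 6.98, 6.96, 7.24 and 7.31 in cyclic animals, with overlap, and rose by 0.28 ± 0.0938 (limma adjusted p = 0.04). IL2RA, the chain that gives the IL-2 receptor its high affinity, measured 4.71, 5.33, 4.5 and 4.99 in pregnant and 4.44, 4.38, 4.53 and 4.58 in cyclic animals, also with overlap, and rose by 0.40 ± 0.137 (limma adjusted p = 0.0444). Both calls depend on single animals and were lost when only the day 18 arrays were fitted (limma adjusted p = 0.129 for IL2RA and 0.16 for IL2RG), and that of IL2RA was also lost after quantile normalisation of all arrays. Without cyclic animal 1 or 2 or pregnant animal 2 or 4 neither passed, and IL2RA did not pass without cyclic animal 3 or 4 either (IL2RG 0.19 to 0.35, IL2RA 0.25 to 0.53).

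IL13RA1, a receptor chain for IL-13 and IL-4, was higher in pregnant animals on 2 days. On day 18 it measured 10.15, 10.35, 10.10 and 10.42 in pregnant and 10.04, 9.86, 9.97 and 9.74 in cyclic animals, a rise of 0.35 ± 0.0993 (limma adjusted p = 0.0154). On day 15 it measured 9.84, 9.75 and 9.64 in pregnant and 9.49, 9.13 and 9.30 in cyclic animals, a rise of 0.44 ± 0.115 (limma adjusted p = 0.0275). The groups did not overlap on either day. The day 18 call was lost without cyclic animal 4 or pregnant animal 2 or 4 (0.30 to 0.40), and the day 15 call without cyclic animal 2 or 3 or pregnant animal 1 or 2 (0.35 to 0.53). A second IL13RA1 probe set passed on day 15 at 0.61 (limma adjusted p = 0.0138) and not on day 18 at 0.26 (limma adjusted p = 0.165).

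The 5 rises of IL1RN, IL20RB, OSMR, IL18 and IL7 passed in every fit that left out 1 day 18 animal. Outside the genes named so far, the ligand IL10 had a day 18 difference of 0.14 ± 0.0784 and its receptor chains IL10RA and IL10RB had 0.26 ± 0.0938 (limma adjusted p = 0.0519) and 0.09 ± 0.073. No gene of the IL-12, IL-17 or common beta chain families passed, and their differences lay between -0.02 and 0.13.

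Markers of immune cells differed between the same animals, beside 12.6% of all genes higher and 10.4% lower on day 18. On day 18, 7 of 10 measured macrophage and dendritic cell markers rose (median difference 1.14), with a mean level of 8.43 to 8.88 in pregnant and 7.40 to 7.71 in cyclic animals. Of 7 neutrophil markers 3 rose (median difference 0.15), with a mean of 6.15 to 6.46 against 5.54 to 5.64. That higher mean rests mainly on S100A12 (group means 9.0 pregnant and 6.59 cyclic), FCGR3A (6.82 and 5.6) and S100A8 (6.99 and 6.08). The others differed little: CXCR1 (4.72 and 4.57), S100A9 (7.01 and 7.04), MPO (5.14 and 5.27) and ELANE (3.99 and 3.94). Of 18 T and NK cell markers none rose and 1 fell, and their mean level ranged from 6.51 to 6.91 in pregnant and from 6.47 to 6.90 in cyclic animals. Endothelial markers fell for 5 of 11, with a mean of 7.78 to 8.06 against 8.09 to 8.67, and of 12 epithelial markers 3 rose and 1 fell. The part of these markers in the interleukin differences was not tested.

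**Figure D2:**
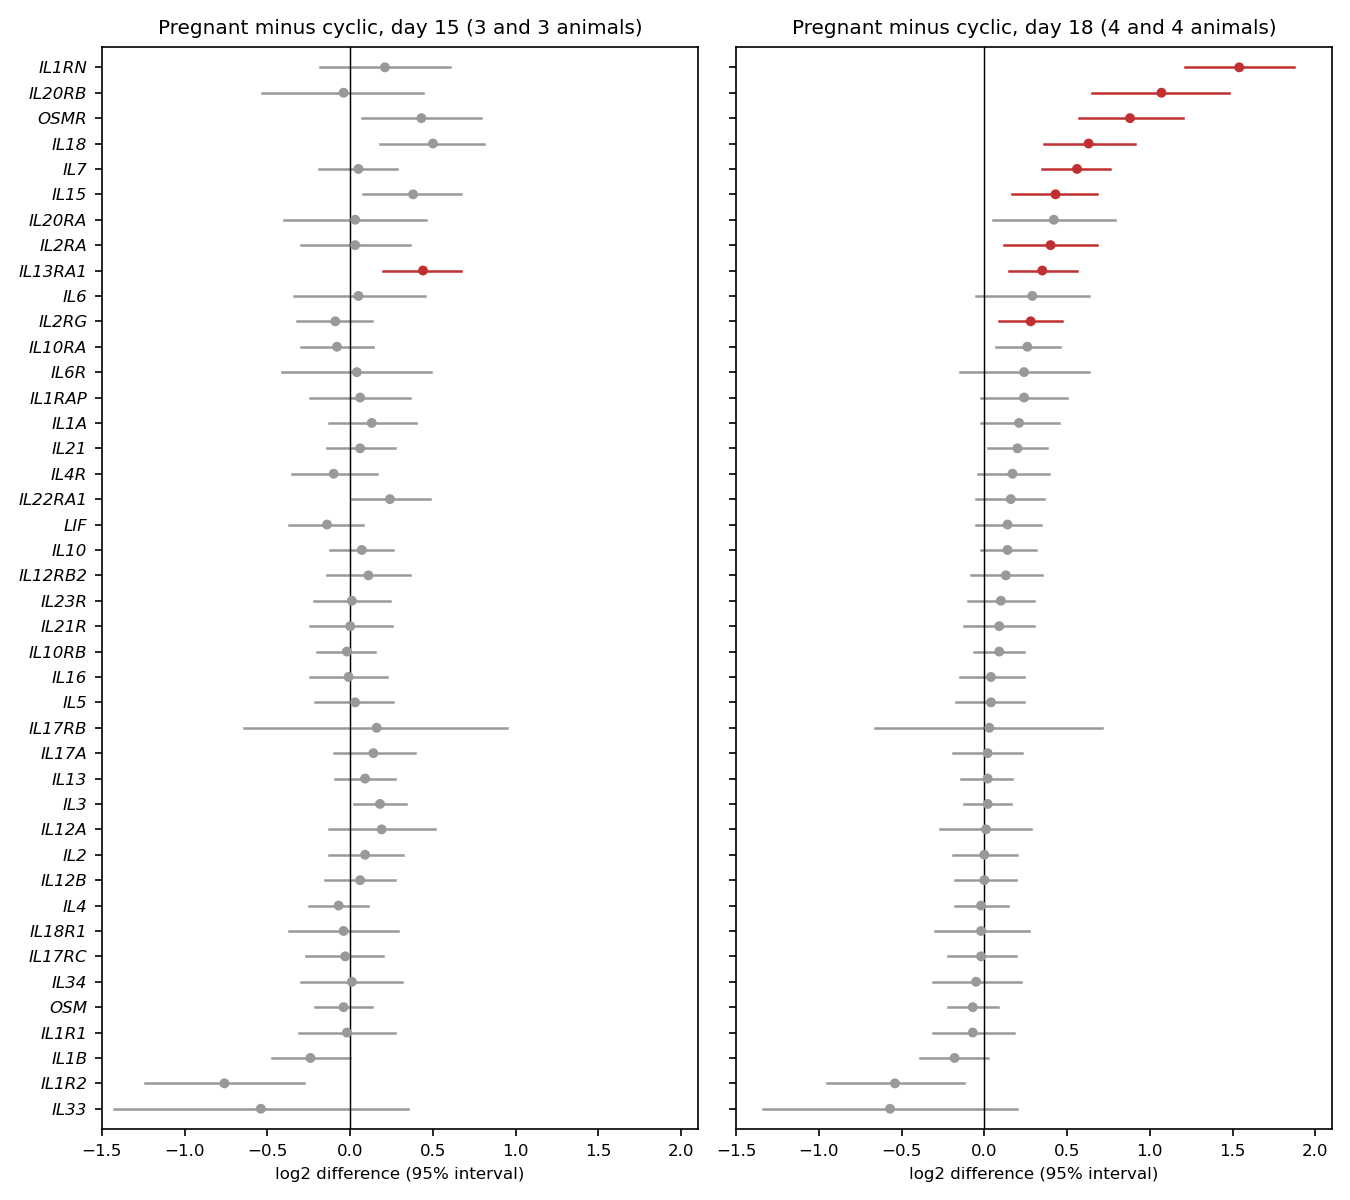
Pregnant minus cyclic difference in log2 expression for all 42 genes on day 15 (left, 3 and 3 animals) and day 18 (right, 4 and 4 animals), with the 95% interval of the limma fit; red marks genes past the threshold. IL13RA1 is the only red gene on day 15, 9 genes are red on day 18, and IL1R2 and IL33 have the lowest differences on both days.

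On day 15, with 3 animals per group, IL13RA1 was the only one of the 42 past the threshold (2.38%), beside 4.04% of all genes higher and 2.34% lower. At an unadjusted p below 0.05 there were 6 higher and 1 lower, and the arrays did not overlap for 6 of the 42 (14.3%, beside 26.9% of all genes). IL18 measured 7.94, 7.77 and 7.69 in pregnant and 7.41, 7.36 and 7.14 in cyclic animals, a difference of 0.50 ± 0.152 that did not pass (limma adjusted p = 0.0623). OSMR measured 8.11, 8.08 and 8.06 against 8.00, 7.59 and 7.38 (0.43 ± 0.174, limma adjusted p = 0.174). Both genes were higher in all 3 pregnant animals than in any cyclic one. The mean level of the type I interferon response genes, 31 of which were measured, was by then 9.76 to 9.88 in pregnant and 7.12 to 7.73 in cyclic animals, and 27 of them had risen, against 29 on day 18.

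On day 12 no interleukin gene passed in limma, and 3 had an unadjusted p below 0.05: IL10RA at 0.18 ± 0.0839, IL4 at -0.18 ± 0.0668 and its receptor chain IL4R at -0.20 ± 0.0945. The arrays of pregnant and cyclic animals overlapped for all 42 genes, whereas they did not overlap for 1.13% of all genes, and 0.0109% of all genes passed in either direction. None of the 31 interferon response genes passed on this day.

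Whether the pregnancy difference itself changed from day to day was tested as an interaction. From day 12 to day 15 it changed for none of the 42 genes in limma (5 at an unadjusted p below 0.05), beside 1.96% of all genes with a larger and 0.579% with a smaller difference. From day 15 to day 18 it grew for IL1RN alone among the 42, beside 0.218% of all genes with a larger and 0.0328% with a smaller difference. IL1RN measured 6.32, 5.92 and 5.87 in pregnant and 6.07, 5.44 and 5.97 in cyclic animals on day 15, where the groups overlapped. Its difference was 0.21 on day 15 and 1.54 on day 18, and the change was 1.33 ± 0.246 (limma adjusted p = 0.0185). The change did not pass without cyclic animal 1 or 3 or pregnant animal 2 or 3 of day 15 (1.13 to 1.52). For IL20RB the change was 1.11 ± 0.307 and did not pass (limma adjusted p = 0.162).

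In the biopsies, the interferon response genes rose under IFNA, 25 of 31 against placebo and 25 of 31 against PBS, with a mean level of 9.97 to 10.27 under IFNA, 7.68 to 7.97 under placebo and 7.73 to 8.02 under PBS. Among the interleukin genes only IL33 passed in either of these comparisons, which share the IFNA arrays. Against placebo none of the 42 passed in limma, beside 1.11% of all genes higher and 0.0218% lower, and 5 higher and 1 lower had an unadjusted p below 0.05. The arrays did not overlap for 9 of the 42 (21.4%, beside 11.9% of all genes), 7 of them higher and 2 lower. Against PBS 1 of the 42 fell and none rose, beside 0.994% of all genes higher and 0.218% lower, and the arrays did not overlap for 6 (14.3%, beside 17.4% of all genes). Between placebo and PBS no interleukin gene and no gene at all (0%) passed in limma, with 1 of the 42 at an unadjusted p below 0.05, and arrays did not overlap for 2 of the 42 (4.76%, beside 6.96% of all genes).

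**Figure D3:**
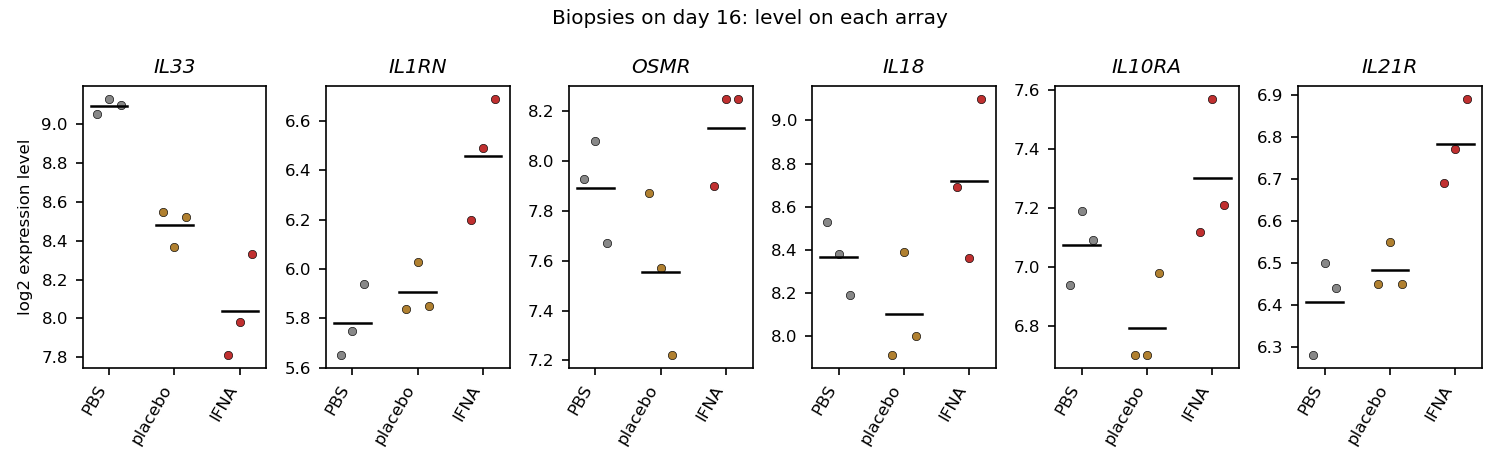
Log2 expression level of 6 interleukin genes on each biopsy array (points, 3 animals per group) with the group mean (bar), for PBS, placebo and IFNA on day 16. IL33 lies between 9.05 and 9.13 under PBS, 8.37 and 8.55 under placebo and 7.81 and 8.33 under IFNA, and IL1RN is higher in all 3 IFNA animals than in any other.

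IL33 is a cytokine of the IL-1 family kept in the nucleus of epithelial and endothelial cells and released as an alarm signal. It measured 7.81, 7.98 and 8.33 under IFNA, 8.55, 8.37 and 8.52 under placebo and 9.05, 9.13 and 9.10 under PBS. The 3 groups did not overlap and the placebo animals lay between the other groups. IFNA against PBS gave a fall of 1.05 on the log2 scale (difference -1.05 ± 0.136, 2.08-fold, limma adjusted p = 0.00775), and the difference did not pass without PBS animal 2 (-1.20 to -0.94 over all fits with 1 animal left out). Against placebo the difference was -0.44 ± 0.136 (limma adjusted p = 0.325), and placebo against PBS gave -0.61 ± 0.136 (limma adjusted p = 0.999). A second probe set also fell, with a difference of -1.03 ± 0.178 between IFNA and PBS (limma adjusted p = 0.0367). The third gave 0.16 ± 0.147 and did not pass.

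Markers of tissue cell types were compared between IFNA and PBS in these animals. Of 11 endothelial markers 2 fell, beside 0.218% of all genes, with a median difference of -0.56. Their mean level was 7.28 to 7.78 under IFNA, 7.55 to 7.92 under placebo and 8.00 to 8.22 under PBS. None of 12 epithelial or 10 stromal markers passed, with median differences of 0.32 and -0.39. The part of these cell types in the IL33 difference was not tested. With the GAPDH signal difference as a covariate the IL33 difference was -1.05 (limma adjusted p = 0.0107). In the pregnancy experiment IL33 varied widely between animals, from 5.37 to 7.70 on day 12, 6.12 to 7.73 on day 15 and 6.85 to 8.26 on day 18. Pregnant minus cyclic differences were -0.59 ± 0.332, -0.54 ± 0.429 and -0.57 ± 0.371, with overlapping groups, and none passed.

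IL1RN measured 6.20, 6.49 and 6.69 under IFNA, 5.84, 6.03 and 5.85 under placebo and 5.65, 5.75 and 5.94 under PBS. All 3 IFNA animals were above the other 6. The differences of 0.55 ± 0.143 against placebo (limma adjusted p = 0.201) and 0.68 ± 0.143 against PBS (limma adjusted p = 0.0903) did not pass, though the latter did without IFNA animal 1 (adjusted p = 0.0387 in limma). IL21R, the IL-21 receptor chain, was likewise highest under IFNA, at 6.69, 6.77 and 6.89 against 6.45, 6.55 and 6.45 under placebo and 6.28, 6.5 and 6.44 under PBS. Its differences of 0.30 ± 0.101 and 0.38 ± 0.101 did not pass (limma adjusted p = 0.39 and 0.185).

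IL10RA, the ligand-binding chain of the IL-10 receptor, measured 7.12, 7.57 and 7.21 under IFNA, 6.70, 6.70 and 6.98 under placebo and 6.94, 7.19 and 7.09 under PBS. It was above placebo by 0.51 ± 0.145 (limma adjusted p = 0.266) and overlapped with PBS. IL18 measured 8.69, 8.36 and 9.10 under IFNA, 7.91, 8.39 and 8.00 under placebo and 8.53, 8.38 and 8.19 under PBS. The IFNA range overlapped with both others, and the difference from placebo was 0.62 ± 0.203 (limma adjusted p = 0.375). IL4R was higher in all IFNA animals than in any PBS animal by a difference of 0.13 ± 0.104. IL1B was lower in all of them by -0.38 ± 0.233. The T cell growth factor IL2 gave -0.19 ± 0.0864 against placebo and, with placebo above PBS on every array, 0.16 ± 0.0864 for placebo against PBS. None of these passed. In the biopsies too, macrophage and dendritic cell markers were higher under IFNA: 4 of 10 rose against placebo, and 3 rose and 1 fell against PBS, with a mean level of 7.97 to 8.41 under IFNA, 6.86 to 7.45 under placebo and 7.37 to 7.61 under PBS. T and NK cell markers gave none of 18 past the threshold in limma against either control, with 3 at an unadjusted p below 0.05 against placebo and 2 against PBS. Of all genes, 1.11% were higher against placebo, and 0.994% were higher and 0.218% lower against PBS. The part of the cell markers was not tested.

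OSMR is the gene whose probe sets differed most in what they show under IFNA. The brightest of the 4, which represents the gene, measured 7.90, 8.25 and 8.25 under IFNA, 7.87, 7.57 and 7.22 under placebo and 7.93, 8.08 and 7.67 under PBS. It gave 0.58 ± 0.187 against placebo (limma adjusted p = 0.356) and overlapped with PBS. The third brightest measured 6.07, 6.47 and 7.07 under IFNA, 5.22, 5.44 and 4.91 under placebo and 5.47, 5.47 and 5.17 under PBS. All IFNA animals were above the other 6 there, and the rise over placebo was 1.35 ± 0.244 (limma adjusted p = 0.0479). It passed in 1 of the 6 fits that left out an animal, that without IFNA animal 1 (1.08 to 1.58, largest limma adjusted p = 0.165). The second brightest gave 1.02 ± 0.22 (limma adjusted p = 0.0962) and the dimmest 0.04 ± 0.139 (limma adjusted p = 0.98).

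On day 18 the OSMR probe sets agreed in sign. The third brightest measured 6.28, 6.95, 7.83 and 6.88 in pregnant and 5.25, 4.90, 5.29 and 5.26 in cyclic animals, a rise of 1.81 ± 0.203 (limma adjusted p = 1.24e-06) that passed in all 8 fits with 1 animal left out. Its change from day 15 to day 18 was 1.47 (limma adjusted p = 0.0498), which passed in 3 of 14 such fits (1.19 to 1.71).

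**Figure D4:**
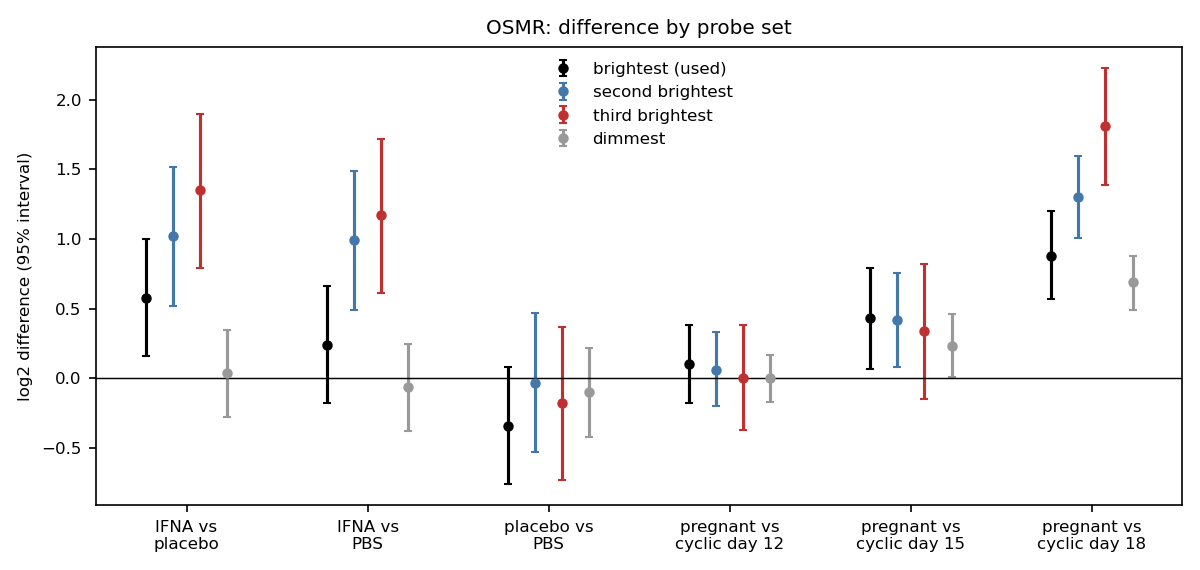
Difference in log2 expression of OSMR in 6 comparisons, for each of its 4 probe sets in order of brightness, with the 95% interval of the limma fit. On day 18 the 4 differences are 0.69, 0.88, 1.30 and 1.81; between IFNA and placebo they run from 0.04 to 1.35.

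The IFNA difference from placebo was also compared directly with the pregnancy differences, which share no control animals with it. The experiments also differ in day, sampling, RNA quality and normalisation set, which cannot be told apart here from IFNA against pregnancy. Against day 15, none of the 42 genes passed in limma (4 at an unadjusted p below 0.05), beside 0.218% of all genes with a larger and 0.284% with a smaller IFNA difference. Against day 18, IL1RN alone passed, beside 0.393% of all genes with a larger and 1.06% with a smaller IFNA difference. Its IFNA difference was smaller by 0.99 than its day 18 difference (-0.99 ± 0.237, limma adjusted p = 0.0355). That term did not pass without IFNA or placebo animal 1 or 2, cyclic day 18 animal 2, 3 or 4, or pregnant day 18 animal 2 (-1.10 to -0.79). For IL18 the same term was -0.02 ± 0.228, with a 95% interval of -0.48 to 0.45, for OSMR -0.31 ± 0.241 (-0.80 to 0.19) and for IL20RB -0.76 ± 0.396 (-1.57 to 0.05).

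Genes linked to interleukin signalling were looked at beside the ligands and receptors. The list held mainly JAK, STAT, SOCS, NF-kappa-B and inflammasome genes, and 43 of its genes were measured. STAT2 is also one of the type I interferon response genes. On day 18, 14 of the 43 rose and 1 fell, beside 12.6% of all genes higher and 10.4% lower. The median difference of the 43 was 0.17. The 3 largest rises were those of CASP4 (2.08 ± 0.23), an inflammatory caspase, STAT2 (1.55 ± 0.0932), a transducer of interferon signals, and PYCARD (1.19 ± 0.143), the adaptor of the inflammasome. CASP1, which cleaves the precursors of IL-1 beta and IL-18 to their active forms, rose by 0.63 ± 0.13, and MYD88, the adaptor of IL-1 family receptors, by 0.38 ± 0.087. The others were SOCS4 (0.67), NFKBIZ (0.59), STAT4 (0.46), CEBPB (0.46), NFKBIE (0.40), STAT6 (0.35), IKBKG (0.32), NFKBIB (0.29) and NFKB1 (0.25), and GAB1 fell (-0.27).

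On day 15, STAT2 rose by 1.33 ± 0.108, and CISH (-0.28) and PTPN6 (-0.31), which restrain cytokine signals, fell. These calls stand beside 4.04% of all genes higher and 2.34% lower. STAT2 and CASP4 rose under IFNA against placebo (1.43 ± 0.142 and 1.77 ± 0.236) and against PBS (1.54 ± 0.142 and 1.42 ± 0.236). Of all genes, 1.11% were higher against placebo and 0.994% against PBS. CASP1 and PYCARD had differences of 1.26 ± 0.247 and 1.07 ± 0.224 against placebo that did not pass (limma adjusted p = 0.0669 and 0.0866). None of the 43 passed on day 12 (2 at an unadjusted p below 0.05) or between placebo and PBS (0 at an unadjusted p below 0.05) in limma.

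In cyclic animals, levels differed between days for several interleukin genes. These comparisons cross sets of arrays, so they are descriptions only, and a gene is named where the day 18 minus day 12 difference was at least 1 in the deposited values, after subtraction of each array's median and after quantile normalisation of all arrays together, with no overlap between the days. This held for 4 of the 42. The share of all genes that meet this rule was not determined, so the count does not set the interleukin genes apart. IL1R2 went from 3.90 ± 0.12 (SD, n = 5) on day 12 to 5.50 ± 0.10 (SD, n = 3) on day 15 and 7.20 ± 0.52 (SD, n = 4) on day 18, a difference of 3.30 as deposited, 2.90 after subtraction and 2.73 after quantile normalisation. IL1A went from 3.59 ± 0.12 over 4.00 ± 0.26 to 5.42 ± 0.14 (differences 1.83, 1.43 and 1.16). IL15 went from 4.63 ± 0.15 over 5.45 ± 0.10 to 6.38 ± 0.24 (1.75, 1.35 and 1.13). IL18 took the other direction, from 8.38 ± 0.20 over 7.30 ± 0.14 to 7.20 ± 0.12 (-1.19, -1.59 and -1.67). The means of each day are deposited values, and the step from day 15 to day 18 depended on the scale. In the same order of scales, it was -0.11, -0.86 and -0.88 for IL18 and 0.93, 0.18 and 0.10 for IL15. By these probe sets a ligand and a decoy receptor of the same pathway, IL1A and IL1R2, were both higher on day 18 than on day 12. A second IL1A probe set had deposited cyclic means of 4.07, 3.98 and 5.00 on days 12, 15 and 18. It was thus also higher on day 18, but by less than 1.

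**Figure D5:**
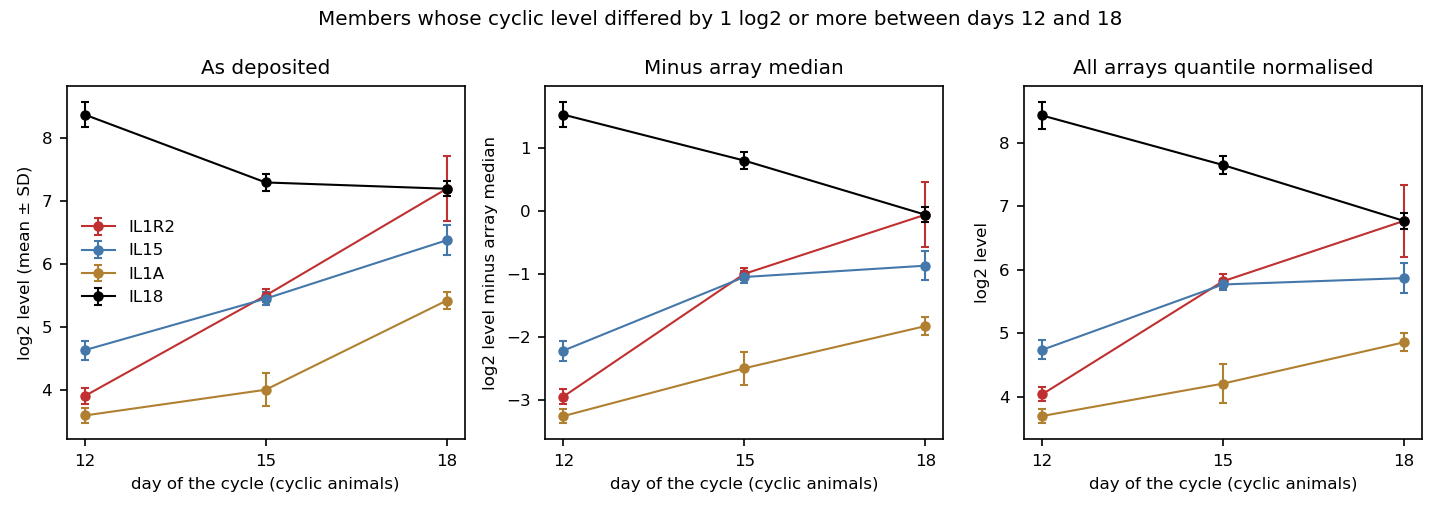
Mean log2 level (± SD) of IL1R2, IL15, IL1A and IL18 in cyclic animals on days 12, 15 and 18 (5, 3 and 4 animals), on 3 scales: as deposited, minus each array's median, and after quantile normalisation of all arrays. On each scale IL1R2, IL15 and IL1A are higher and IL18 is lower on day 18 than on day 12.

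Of these 4 genes, IL15 and IL18 also passed the threshold between pregnant and cyclic animals on day 18. In the deposited values, pregnant IL18 was 8.26, 7.80 and 7.83 on days 12, 15 and 18, beside cyclic means of 8.38, 7.30 and 7.20. After subtraction of each array's median it was 1.4, 1.31 and 0.58, beside 1.53, 0.80 and -0.06. Pregnant IL15 was 4.58, 5.83 and 6.81 as deposited, beside 4.63, 5.45 and 6.38. After subtraction it was -2.28, -0.67 and -0.44, beside -2.22, -1.05 and -0.87.

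Biopsies and slaughter tissue differed by at least 1 on all 3 scales for 4 of the 42 genes. How many of all genes differ by as much was not determined, so this count too is a description only. IL6R was lower in the biopsies, at 7.99 to 9.90 against 9.78 to 11.34 (mean difference -2.03 as deposited), as was IL17RC, a receptor chain for IL-17, at 4.67 to 5.40 against 6.58 to 8.14 (-2.49). A second IL6R probe set measured 4.30 to 5.87 against 8.31 to 10.06, with no overlap. The size of the IL6R difference thus depended on the probe set. By its brightest probe set IL33 had a higher mean in the biopsies, with overlap, at 7.81 to 9.13 against 5.37 to 8.26 (1.62). A second IL33 probe set measured 6.96 to 8.44 against 5.73 to 7.89. The third measured 3.35 to 4.12, inside the slaughter range of 2.91 to 5.78. IL1R2 had a higher mean over the biopsies (difference 1.16), but its range of 5.72 to 7.36 lay inside that of the slaughter tissue, 3.47 to 7.94. Its day 18 means of 7.20 in cyclic and 6.66 in pregnant animals were above all 3 biopsy group means (6.12 to 6.58) in the deposited values. This order depended on the scale. After subtraction of each array's median the pregnant mean was -0.58, below all 3 biopsy group means (-0.51 to -0.08), and the cyclic mean was -0.06. In the placebo biopsies IL6R measured 8.49, 7.99 and 9.90 where the GAPDH 3′ minus 5′ difference was 2.83, 3.87 and 1.03. IL6R was thus highest on the biopsy array with the smallest GAPDH difference. Sampling, RNA quality and normalisation set cannot be told apart here. CXCL8, also known as interleukin 8 but outside the 42 by its symbol, did not pass in any comparison (0.20 ± 0.112 on day 18, -0.40 ± 0.446 for IFNA against placebo).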

How the data were processed

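Endometrial RNA of 33 heifers was measured on Affymetrix arrays, 1 per animal. The deposited values are log2 expression levels that the authors made with RMA (package affy), per the submitters' processing notes. Versions are not given in the sources used here. That biopsies and slaughter days were normalised separately is an inference from the sorted values. Values ran from 1.89 to 14.2. Of 24128 probe sets, 112 controls were left out. Of the rest, 13292 had 1 symbol, 86 several and 10638 none, and 13263 symbols were updated by gene identifier.

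Linear models with 1 mean per group (limma 3.58.1, lmFit and eBayes, R 4.3.3) were run on the 9 biopsy arrays, the 24 slaughter arrays or, for IFNA minus pregnancy terms, all 33. Tests were two-sided, with Benjamini-Hochberg adjustment over all 24016 probe sets. Precision is limited by how many arrays there are, with a median standard error of 0.147 in biopsies and 0.0906, 0.117 and 0.101 on days 12, 15 and 18. The fit was tested on simulated data. Named genes are those past the threshold, the 3 largest differences each way among those with no overlap, and a fixed list. The signalling list and cell markers, like the choice of interleukin genes, were chosen with earlier results of these data known. The labels do not say whether replicate numbers pair the animals, and the main fits did not pair them. Of 21 correlations of same-numbered deviations 6 were over 0.1 (-0.34 to 0.37). With so few animals per group this cannot decide whether pairs exist. Alternatives were quantile normalisation of all arrays, a filter on dim probe sets, array weights, trended robust eBayes, a replicate block, a GAPDH covariate, means over probe sets, fits of 2 groups only and leaving out each animal.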

Additional observations from a re-analysis of the deposited data

Results flagged for a closer look

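On day 18 IL1RN had 1 pregnant animal far from the rest, animal 2 at 8.20 where the other 3 lay at 7.38 to 7.46. In the same set, IL1A in cyclic animal 2 was 5.21 (others 5.48 to 5.52) and IL6 in cyclic animal 1 was 3.87 (others 3.68 to 3.71). On day 12, 4 pregnant animals stood apart, each for 1 gene or, for animal 5, 2 genes: animal 1 for IL1RN at 5.77 (others 5.32 to 5.37), animal 2 for IL2RA at 3.24 (others 3.63 to 3.77), animal 5 for IL7 at 4.60 (others 4.38 to 4.43) and for LIF at 4.61 (others 4.70 to 4.73), and animal 4 for OSMR at 7.63 (others 7.34 to 7.38). These are 8 outlying values among 96 combinations of group and gene examined by Dixon's criterion. Chance alone flags about 1 in 20 such combinations.

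The effect of pregnancy on IL1RN differed between days, with a change of 1.33 from day 15 to day 18, and it differed from the effect of IFNA, with a term of -0.99 against day 18. Both rest on interaction terms in limma, and they did not pass in 4 and 8 of 14 fits with 1 animal left out. The second term crosses the 2 experiments. Day, sampling, RNA quality and normalisation set cannot be told apart there from the difference between IFNA and pregnancy.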

How the results depend on the processing

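Of the 13 interleukin differences past the threshold, none changed sign under the settings listed with the processing. Past it stayed 78 of 112 fits with 1 animal left out and 76 of 83 other alternatives. The dim filter removed 5 of the genes called on day 18 (IL15, IL1RN, IL20RB, IL2RA and IL7). It could not be assessed for them and is not counted for them in the 83. Among alternatives that keep all animals, the count of interleukin genes past the threshold moved by over 1.5 times in some comparisons with array weights, the dim filter and the block. Array weights gave 2 for IFNA against PBS (IL1RN added), 3 for the IFNA minus day 15 term and 4 for the IFNA minus day 18 term. Leaving out the dimmest 40% of probe sets gave 2 on day 15 (IL18 added), 5 on day 18, and 0 for the day 15 to 18 change and the IFNA minus day 18 term; the filter removes 26 of the 42 genes, IL1RN among them. The replicate block gave 2 on day 15 (IL13RA1 higher and IL1R2 lower). On day 18 the block kept the count at 9, with IL1R2 lower and IL10RA higher in place of IL2RA and IL2RG. The mean over probe sets gave 10 on day 18 (IL10RA added), and quantile normalisation of all arrays put IL10RA there in place of IL2RA. With only the groups compared in the fit, day 18 gave 6 (IL15, IL2RA and IL2RG lost), and day 15 gave 1, IL1R2 lower in place of IL13RA1. Leaving out 1 animal gave 0 to 0 for IFNA against placebo, placebo against PBS, day 12 and the day 12 to 15 change, 0 to 2 for IFNA against PBS (0 without PBS animal 2, 2 without IFNA animal 1), 0 to 1 on day 15, 5 to 10 on day 18 (5 without pregnant animal 2, 10 without pregnant animal 1), 0 to 2 for the day 15 to 18 change, 0 to 1 for the IFNA minus day 15 term and 0 to 2 for the IFNA minus day 18 term. In alternatives chosen after seeing the data, another IL33 probe set turned the sign, to 0.16 for IFNA against PBS and 0.45 for placebo against PBS. The causes were not tested. Dim signal limits what can be seen for the 12 genes below the 25th percentile.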
